A study of Saccharomyces cerevisiae with 8 samples.

Results

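The RNA of DGY1741, called ComQuad in the study, was compared with that of DGY1743, called ODIRA_B, in the 4 RNA-seq libraries that carry these strain names among the 8 of the series. Each strain had 2 replicate cultures, and both descend from the FY4/S288C laboratory background of Saccharomyces cerevisiae with a fluorescent mCitrine reporter and a KanMX marker at the GAP1 locus. Both were isolated, by the study's account, late in a long evolution experiment under glutamine limitation, and all 4 cultures were again grown in chemostats fed with limiting glutamine and treated with cycloheximide just before harvest. DGY1741 carries an amplification of a core of genes around GAP1 (SET3 to TRK2) with a further, transposon-mediated copy of GAP1, whereas DGY1743 carries an amplification by origin-dependent inverted repeat (ODIRA) that reaches from VPS1 to ESL2 and contains the same core. Each strain is 1 clone, so that all differences between them, the copy number variants (CNVs), the point changes and the mitochondrial genome included, are compared together and cannot be told apart. The ancestor was not analysed here, and no ratio says which of the strains moved.

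A ratio of RNA between these strains can follow gene dosage, regulation of transcription or RNA decay. In glutamine-limited chemostats, yeast runs low on its preferred nitrogen source, and GATA factors then act on genes for poorer sources, which is called nitrogen catabolite repression when it is switched off by good nitrogen. In the same organism Msn2 and Msn4 act on general stress genes, Pho4 on phosphate starvation genes, and the mitochondrial genome encodes a few subunits of the respiratory chain, the ATP synthase and the mitochondrial ribosome. Cells that lose that genome live by fermentation.

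Genes were tested where they had a mean of at least 100 reads over the 4 libraries, which kept 5519 of 6600 protein-coding genes. Levels are given as counts per 1000000 nuclear protein-coding reads (CPM), scaled with TMM factors, for replicates 1 and 2 of each strain. Ratios are log2 of DGY1741 over DGY1743 with a standard error (SE), and a gene is called when its Benjamini-Hochberg adjusted p from edgeR's quasi-likelihood test is under 0.05. The libraries held 13366210 to 15326760 reads over all gene rows. With edgeR, 1392 genes (25.2%) were called, 606 higher in DGY1741 (11.0%) and 786 lower (14.2%). Of these, 330 (5.98%) differed by at least 2-fold, and they were unequally split: 61 higher (1.11%) and 269 lower (4.87%). Without DGY1741 replicate 1 the called genes numbered 739, and without replicate 2 they numbered 838. The counts were 1366 and 1266 without DGY1743 replicates 1 and 2. A fit that leaves out a library keeps 1 sample of that strain, which is assumed to vary like the pair of the other strain. List counts given below for such fits change along with these totals, in some lists by a larger share. A smaller count is therefore not by itself a property of a list. The pairs differed in spread over all protein-coding rows (chi-square per degree of freedom 14.2 in DGY1741 and 47.2 in DGY1743). These values include mitochondrial rows, whose share of reads was 13.2% and 19.2% in the DGY1743 replicates, and were not computed for nuclear genes alone. A call gained or lost in such a fit goes along with a change in which pair set the spread. The spread of every gene was set by the trend over all genes, and not by its own 2 pairs of replicates, so that very small p-values are not printed. CPM values of both strains did not overlap in 3295 of the genes (59.7%).

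Short stretches of the promoters of genes that stand out below are shown first, because 3 of the gene groups with low RNA in DGY1741 are known for a shared promoter motif. Each line gives 28 bases, 5′ to 3′ on the strand of the gene, around the match nearest to the start codon within 500 bases upstream of it, with the match in capitals. The sequence is RefSeq's R64, the build of the files.
PHO89: tgacaatgcagCACGTGggagacaaata
PHO84: gctagattaaaAACGTGcgtattactca
SPL2: gtcactgcagcCACGTGcctagatctat
SIP18: tgctttcggtaCCCCTttaagacaacta
RTC3: aacaacaacgaCCCCTtatttagtcgaa
HSP26: gttattccctcCCCCTtatgcgtccaaa
DAL4: gctgtcacgtcGATAAGgttcctttaaa
DUR3: ttgggtgttatCTTATCgggatatttta
DAL5: tacggctaataCTTATCattatctggtt
These stretches lie at chrII:798829-798856, chrXIII:26046-26073, chrVIII:375115-375142, chrXIII:610636-610663, chrVIII:280609-280636, chrII:381693-381720, chrIX:408206-408233, chrVIII:74563-74590 and chrX:719484-719511, in the same order. Their genes PHO89, PHO84, SPL2 and DUR3 are on the minus strand and the others on the plus strand. CACGTG and CACGTT are core letters bound by Pho4, AGGGG is the stress response element of Msn2 and Msn4, and GATAAG is a GATA factor motif, each read on either strand. Searched on both strands with overlaps counted, CACGTG or CACGTT occurred in the windows of 21.3% of the 5498 tested nuclear genes and in 15 of 18 phosphate genes. AGGGG occurred in 34.2% of all windows and in 26 of 29 stress genes (23 of the 26 called lower and all 3 others), and GATAAG in 22.9% of all windows and in 20 of 27 nitrogen genes outside the VPS1 to ESL2 stretch. Windows of neighbouring divergent genes overlap, and a match describes letters only. A high share in groups known for these motifs does not test whether the factors acted here.

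The mitochondrial genome gave the largest ratios. Its genes took up 0.0809% and 0.0769% of the protein-coding reads in DGY1741, against 13.2% and 19.2% in DGY1743. All 21 tested mitochondrial genes were lower in DGY1741, with log2 ratios between -8.26 and -5.91 and a median of -7.40. They are those of 28 rows that passed the count minimum, which a row could do on its DGY1743 reads alone. With no filter on low counts all 28 were called lower, with a median of -7.3. Fewer mitochondrial genomes per cell and less RNA per genome cannot be told apart in RNA of whole cultures. These ratios are relative to nuclear RNA, since mitochondrial rows were left out of the scaling.

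ATP6 and ATP8 encode membrane subunits of the ATP synthase. ATP6 had 7.75 and 8.03 CPM in DGY1741, against 2094 and 2750.5 CPM in DGY1743 (log2 ratio -8.26, SE 0.23), and ATP8 had 2.41 and 2.60 CPM in DGY1741, against 581 and 943 CPM in DGY1743 (log2 ratio -8.24, SE 0.21). OLI1, the subunit of the rotor ring of the same enzyme, had 9.04 and 8.11 CPM in DGY1741, against 1078 and 1468 CPM in DGY1743 (log2 ratio -7.21, SE 0.20). Of the cytochrome c oxidase subunits, COX1 had 147 and 141 CPM in DGY1741, against 29026 and 45259 CPM in DGY1743 (log2 ratio -8.01, SE 0.41). COX3 had 31.1 and 26.3 CPM in DGY1741, against 1337 and 2104 CPM in DGY1743, which was the smallest difference of the 8 proteins (log2 ratio -5.91, SE 0.19). COB, cytochrome b, had 51.2 and 47.2 CPM in DGY1741, against 5899 and 10269 CPM in DGY1743 (log2 ratio -7.36, SE 0.28). VAR1, a protein of the mitochondrial ribosome, had 16.4 and 13.1 CPM in DGY1741, against 868 and 1464 CPM in DGY1743 (log2 ratio -6.31, SE 0.19). For every protein the libraries of DGY1741 lay close together, and DGY1743 replicate 2 was above replicate 1. COX1 and COB are counted together with reading frames inside their introns, so that those rows are not independent.

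**Figure D1:**
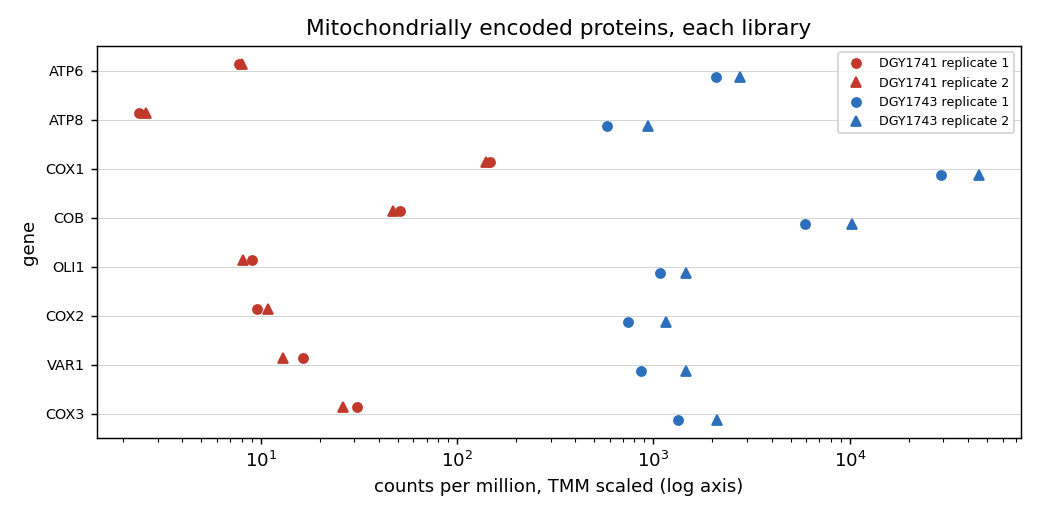
CPM (log axis) of the 8 mitochondrially encoded proteins in each library, with circles for replicate 1 and triangles for replicate 2. The DGY1741 points lie between 2.41 CPM (ATP8) and 147 CPM (COX1), and every gene has both DGY1743 points far to the right of its own DGY1741 points.

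The nuclear genes of respiration differed much less. Of 39 nuclear genes of respiratory complexes II to V and related dehydrogenases, 8 were lower in DGY1741, none was higher and 31 were not called, with a median log2 ratio of -0.24. Across nuclear genes outside VPS1 to ESL2, 11.2% were called higher and 12.7% lower, with a median of 0.01. NDE2, an external NADH dehydrogenase of the mitochondrion, had 29.0 and 23.0 CPM in DGY1741, against 81.8 and 72.1 CPM in DGY1743 (log2 ratio -1.57, SE 0.17). SDH2, the iron-sulphur subunit of succinate dehydrogenase, had 40.5 and 44.9 CPM in DGY1741, against 82.2 and 55.2 CPM in DGY1743 (log2 ratio -0.69, SE 0.16) and was not called without DGY1741 replicate 1 (-0.63) or DGY1743 replicate 1 (-0.37). Without DGY1741 replicate 1 the median of the 39 genes was -0.18, and fewer of them were called lower, by a larger share than over all genes.

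Retrograde genes, whose transcription in yeast responds to the state of mitochondria through Rtg1 and Rtg3, were split. CIT2, the peroxisomal citrate synthase by which that pathway is usually read, had 1644 and 1435 CPM in DGY1741, against 690.0 and 988 CPM in DGY1743 (log2 ratio 0.88, SE 0.16). PYC1, a pyruvate carboxylase, was also higher in DGY1741 (log2 ratio 0.67, SE 0.18), although it was not called with either DGY1741 replicate left out (0.66 in both cases). ACO1, IDH1 and IDH2, the aconitase and isocitrate dehydrogenase subunits of the tricarboxylic acid cycle, were lower, with ratios of -0.94, -0.68 and -0.91. ACO1 had 393 and 339 CPM in DGY1741, against 734 and 674 CPM in DGY1743. Of the 10 genes on the list, 2 were higher, 3 lower and 5 not called. Of 16 genes for maintenance and transcription of mitochondrial DNA, 2 were higher (12.5%) and 14 were not called. That share is near the 11.2% of nuclear genes outside VPS1 to ESL2.

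Chromosome XI held the next block of differences. DGY1743 carries extra copies from VPS1 (YKR001C, chromosome XI, 440608 to 442722) to ESL2 (YKR096W, chromosome XI, 626793 to 630380) by the study's account, and DGY1741 only of the core inside this stretch. Over the 75 tested flank genes, those outside the core, DGY1741 was 2.99-fold lower at the median (log2 ratio -1.58). Library medians of the same genes, against the DGY1743 mean, were -1.60 in DGY1741 replicate 1 and -1.55 in replicate 2. No flank gene had a positive ratio, and 73 of 75 were called lower, whereas 14.2% of all genes were. The side from VPS1 to SAP190 (28 genes, median -1.51) and the side from YKR051W to ESL2 (47 genes, median -1.59) had close medians. Of the 75 genes, 63 (84.0%) lay within 0.5 log2 units of the flank median.

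VPS1, the dynamin-like protein at the left end, had 373 and 357 CPM in DGY1741, against 1050.0 and 927 CPM in DGY1743 (log2 ratio -1.44, SE 0.15). ESL2, at the right end, had 224 and 219 CPM in DGY1741, against 777 and 703 CPM in DGY1743 (log2 ratio -1.74, SE 0.14). Just beyond ESL2, PCK1, the gluconeogenic phosphoenolpyruvate carboxykinase, had 17.7 and 23.7 CPM in DGY1741, against 45.9 and 33.1 CPM in DGY1743 (log2 ratio -0.93, SE 0.20). MET14, of sulfate assimilation, is the first gene on the left arm side of the centromere and had a log2 ratio of -0.93 (SE 0.13). The 218 tested genes of chromosome XI outside VPS1 to ESL2 had a median of -0.04, with 27 called higher and 33 lower. SET3, at which the amplified core of DGY1741 begins, lay between both levels with 209.9 and 228 CPM in DGY1741, against 335 and 297 CPM in DGY1743 (log2 ratio -0.53, SE 0.13). The study places a likely DGY1741 breakpoint inside SET3, reports disrupted RNA there and left the gene out. Its ratio is therefore not that of an intact gene.

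A few flank genes lay far from the flank median. KTR2, a mannosyltransferase of the Golgi, had 27.1 and 25.7 CPM in DGY1741, against 270.5 and 299 CPM in DGY1743, which is 10.8-fold lower in DGY1741 (log2 ratio -3.43, SE 0.15). YSR3, a phosphatase of dihydrosphingosine phosphate, had 43.6 and 34.0 CPM in DGY1741, against 358 and 474 CPM in DGY1743 (log2 ratio -3.42, SE 0.15). SRL3, which can suppress the lethality of rad53 mutations, had 10.2 and 13.1 CPM in DGY1741, against 111 and 128 CPM in DGY1743 (log2 ratio -3.36, SE 0.18). Measured from the flank median, these 3 genes lay between -1.85 (KTR2) and -1.78 (SRL3) on the log2 scale. YKR012C and ECM4, chosen after their values were seen, were also far below it. YKR012C is a dubious reading frame that overlaps PRY2 on the opposite strand (2.07 and 2.91 CPM in DGY1741, against 17.8 and 20.1 CPM in DGY1743, log2 ratio -2.92). ECM4, a glutathione transferase, had 31.4 and 26.8 CPM in DGY1741, against 209.7 and 163 CPM in DGY1743 (log2 ratio -2.68, SE 0.15).

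On the other side, PTR2, YKR075C and PRY2 lay farthest above the flank median. PTR2, the transporter of di- and tripeptides, had 70.7 and 47.6 CPM in DGY1741, against 75.4 and 71.0 CPM in DGY1743 (log2 ratio -0.31, SE 0.15, adjusted p = 0.133 with edgeR). YKR075C, a protein of unknown function, had 115 and 97.9 CPM in DGY1741, against 111 and 151 CPM in DGY1743 (log2 ratio -0.30, SE 0.14, adjusted p = 0.103 with edgeR), and its strains overlapped. Without DGY1741 replicate 1 PTR2 was called lower (-0.64), and without DGY1743 replicate 1 YKR075C was called lower (-0.50). PRY2, a secreted sterol-binding protein, was called lower in DGY1741, with 38.2 and 40.4 CPM in DGY1741, against 66.9 and 61.0 CPM in DGY1743 (log2 ratio -0.70, SE 0.17).

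**Figure D2:**
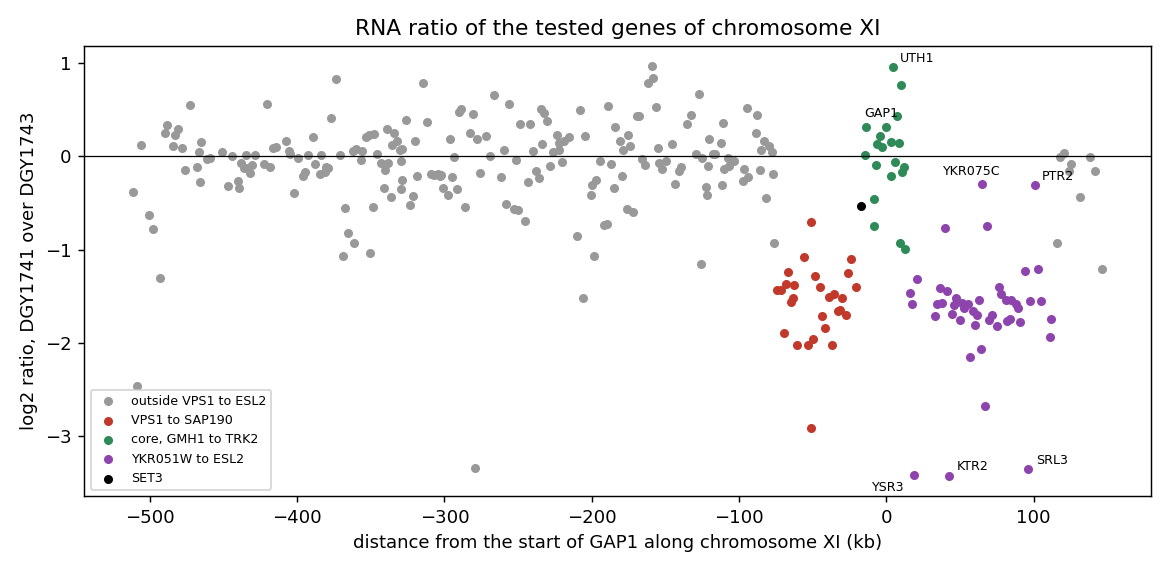
Log2 ratio of DGY1741 over DGY1743 (vertical axis) against the distance from the start of GAP1 in kb (horizontal axis) for each tested gene of chromosome XI, coloured by segment. Both flanks sit near -1.58, the core between them and the rest of the chromosome sit near 0, and KTR2, YSR3, SRL3, PTR2 and YKR075C stand off the flank level.

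The 20 tested genes of the core, GMH1 to TRK2, had a median log2 ratio of 0.06, with 3 called higher (15%), 4 lower (20%) and 13 not called. Over all genes 11.0% were called higher and 14.2% lower. The core median was -0.02 without the filter on low counts. GAP1 (YKR039W, chromosome XI, 515063 to 516871), the general amino acid permease, had 25476 and 25444 CPM in DGY1741, against 20944 and 20068 CPM in DGY1743. The strains did not overlap, and GAP1 was 1.24-fold higher in DGY1741, but it was not called (log2 ratio 0.31, SE 0.32, adjusted p = 0.521 with edgeR). The trended spread, and with it this SE, was wide at its counts. DESeq2 called it, with nearly the same ratio (0.31, adjusted p = 0.0471), and edgeR did so without DGY1743 replicate 1 (0.34, adjusted p = 0.0338), where the DGY1741 pair alone set the spread. Adjusted p-values over all alternatives lay between 0.0338 and 0.889.

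DAL80 (YKR034W, chromosome XI, 506898 to 507707), a GATA repressor of GAP1 and other nitrogen genes, had 1063 and 1018 CPM in DGY1741, against 1623 and 1234 CPM in DGY1743 (log2 ratio -0.46, SE 0.16, adjusted p = 0.0246 with edgeR). It was not called with DGY1741 replicate 1 (-0.51) or replicate 2 (-0.42) left out, nor without DGY1743 replicate 1 (-0.25). UTH1 (YKR042W, chromosome XI, 519527 to 520624), a SUN family protein of the cell wall, was the highest gene of the core, with 531 and 627 CPM in DGY1741, against 309 and 287 CPM in DGY1743 (log2 ratio 0.96, SE 0.14). TRK2, a potassium transporter, and PET10, a lipid droplet protein, were the lowest. TRK2 had 64.3 and 82.9 CPM in DGY1741, against 161 and 131 CPM in DGY1743, and PET10 had 199 and 236 CPM in DGY1741, against 436 and 389.9 CPM in DGY1743 (log2 ratios -0.99 and -0.92). The study places a likely DGY1741 breakpoint just past TRK2. It saw no obvious disruption there, but writes that the untranslated end of the transcript may be truncated. SSD1 (YDR293C, chromosome IV, 1045640 to 1049392), an RNA-binding protein that binds UTH1 mRNA among others, had 269 and 349 CPM in DGY1741, against 387 and 438 CPM in DGY1743 (log2 ratio -0.42, SE 0.13, adjusted p = 0.0108 with edgeR). SSD1 was not called without DGY1741 replicate 1 (-0.26) or DGY1743 replicate 2 (-0.33).

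The study draws a nonsense change in MCK1 and an in-frame deletion in CDC45 in DGY1741, and changes at YNL017C in DGY1743. MCK1 (YNL307C, chromosome XIV, 56446 to 57573), a kinase of the GSK-3 family with roles in stress and meiosis, had 53.4 and 64.7 CPM in DGY1741, against 83.1 and 66.6 CPM in DGY1743 (log2 ratio -0.34, SE 0.15, adjusted p = 0.0882 with edgeR). Among the alternatives it was called only without DGY1743 replicate 2 (-0.49). CDC45 (YLR103C, chromosome XII, 343989 to 345941), a part of the replicative helicase, was higher in DGY1741 with 90.0 and 82.7 CPM in DGY1741, against 55.9 and 57.8 CPM in DGY1743 (log2 ratio 0.60, SE 0.15), and was not called without DGY1741 replicate 1 (0.53). YNL017C was below the count minimum, with 11 and 15 reads in DGY1741 and 5 and 6 in DGY1743.

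Outside the VPS1 to ESL2 stretch, the 12 nuclear genes with the most negative ratios have varied known roles. JLP1, a dioxygenase that frees sulfite from sulfonates, had 11.3 and 15.2 CPM in DGY1741, against 360.1 and 446 CPM in DGY1743, or 30.3-fold lower in DGY1741 (log2 ratio -4.92, SE 0.16). PHO89, a sodium and phosphate cotransporter, had 7.58 and 9.41 CPM in DGY1741, against 193 and 270.4 CPM in DGY1743 (log2 ratio -4.76, SE 0.17). PHO84, the high-affinity phosphate transporter, had 40.1 and 24.2 CPM in DGY1741, against 691 and 403 CPM in DGY1743 (log2 ratio -4.09, SE 0.15). Replicates lay closer together than the strains in each of these genes, which comes with picking them by their ratios in the same libraries. The closest libraries of both strains differed by -3.33 on the log2 scale in PHO84 and by more in the others.

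SIP18, a hydrophilin made in dry or stressed cells, had 13.8 and 16.7 CPM in DGY1741, against 323 and 221 CPM in DGY1743 (log2 ratio -4.15, SE 0.16). Its neighbour YMR175W-A, of unknown function, had 3.53 and 4.51 CPM in DGY1741, against 74.0 and 51.4 CPM in DGY1743 (log2 ratio -3.95, SE 0.23). SHH3, a mitochondrial membrane protein related to the SDH3 subunit, had 2.93 and 2.29 CPM in DGY1741, against 51.4 and 38.1 CPM in DGY1743 (log2 ratio -4.10, SE 0.27). NDJ1 is a telomere protein of meiosis, and it had 4.48 and 3.90 CPM in DGY1741, against 67.2 and 69.7 CPM in DGY1743 (log2 ratio -4.03, SE 0.23).

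ARO10, the decarboxylase of the Ehrlich pathway of amino acid breakdown, had 14.7 and 9.25 CPM in DGY1741, against 160.0 and 164 CPM in DGY1743 (log2 ratio -3.76, SE 0.17). TKL2, the minor transketolase, had 11.7 and 14.4 CPM in DGY1741, against 181 and 144 CPM in DGY1743 (log2 ratio -3.64, SE 0.17). The dubious reading frame YBR116C overlaps TKL2 on the same strand and shares its reads (-3.46). RTA1 had 2.41 and 2.45 CPM in DGY1741, against 30.6 and 40.7 CPM in DGY1743 (log2 ratio -3.87, SE 0.28), and FMP16, a mitochondrial protein, had 7.32 and 6.12 CPM in DGY1741, against 85.1 and 60.5 CPM in DGY1743 (log2 ratio -3.44, SE 0.21). Of these 12 genes, the highest level in any DGY1741 library was 40.1 CPM, in PHO84. SHH3 (34 and 30 reads in DGY1741) and RTA1 (28 and 32 reads), for example, passed the count minimum through their DGY1743 reads.

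Among the nuclear genes with the largest positive ratios, MF(ALPHA)1 came first. It encodes the alpha-factor pheromone, and its counts were low: 191 and 232 reads in DGY1741, against 11 and 19 in DGY1743 (16.4 and 17.7 CPM in DGY1741, against 1.10 and 2.02 CPM in DGY1743, log2 ratio 3.45, SE 0.33). Of its stretches of 50 bases, 14.3% occur elsewhere in the genome. With either DGY1741 replicate left out it was below the count minimum and was not tested. FCY21, a putative purine-cytosine permease, had 155 and 131 CPM in DGY1741, against 29.5 and 25.3 CPM in DGY1743 (log2 ratio 2.38, SE 0.16). HIM1, a protein of DNA repair, had 192 and 119.9 CPM in DGY1741, against 24.5 and 39.9 CPM in DGY1743 (log2 ratio 2.28, SE 0.15). OPT2, an oligopeptide transporter, had 6839.6 and 6059 CPM in DGY1741, against 1373 and 1303 CPM in DGY1743 (log2 ratio 2.27, SE 0.22) and was thus abundant in both strains.

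HO, the endonuclease of mating type switching, had 443 and 442 CPM in DGY1741, against 127 and 127 CPM in DGY1743 (log2 ratio 1.80, SE 0.14), with almost no difference between replicates. TIP1 and SRL1 are cell wall mannoproteins. TIP1 had 75.9 and 80.2 CPM in DGY1741, against 21.8 and 20.8 CPM in DGY1743 (log2 ratio 1.87, SE 0.18), and SRL1 had 76.8 and 65.5 CPM in DGY1741, against 20.9 and 24.9 CPM in DGY1743 (log2 ratio 1.63, SE 0.18). YOR248W, a dubious reading frame that overlaps SRL1 on the same strand, shares its reads (1.64). RDT1 had 78.7 and 56.1 CPM in DGY1741, against 15.9 and 24.5 CPM in DGY1743 (log2 ratio 1.74, SE 0.19). FET3, the ferroxidase of high-affinity iron uptake, had 1203 and 919 CPM in DGY1741, against 308 and 339 CPM in DGY1743 (log2 ratio 1.71, SE 0.15). The remaining genes among the 12 with the largest positive ratios, HTA2 and HTB2, encode histones.

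**Figure D3:**
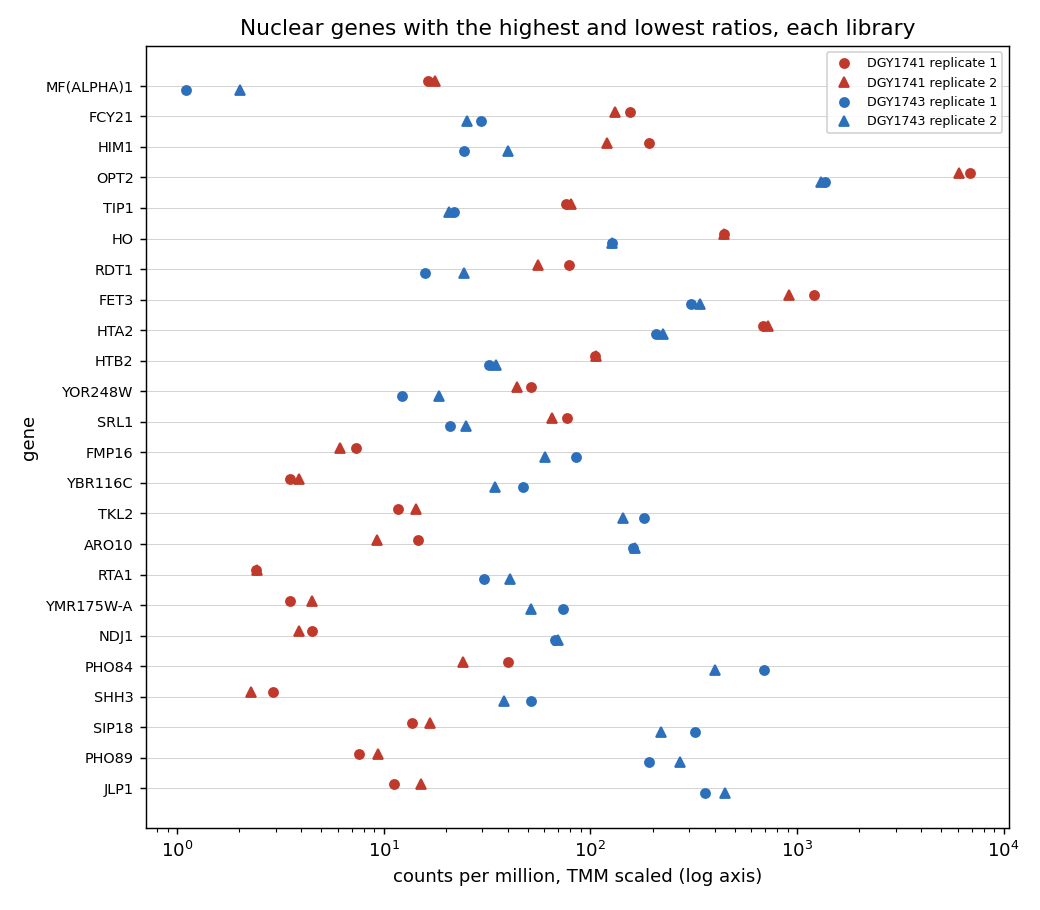
CPM (log axis) in each library for the 12 nuclear genes outside VPS1 to ESL2 with the largest positive ratios (upper rows, MF(ALPHA)1 to SRL1) and the 12 with the most negative (lower rows, FMP16 to JLP1). Circles are replicate 1 and triangles replicate 2. In no row do the DGY1741 and DGY1743 points overlap, which comes with picking genes by their ratios in the same libraries. Over all tested genes 59.7% did not overlap.

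All 10 histone genes were higher in DGY1741, with log2 ratios between 0.47 and 1.71 and a median of 1.50. The H2A and H2B genes led. HTA2 had 687 and 726 CPM in DGY1741, against 208 and 225 CPM in DGY1743 (log2 ratio 1.71, SE 0.14), and HTB2 had 106 and 106 CPM in DGY1741, against 32.4 and 35.0 CPM in DGY1743 (log2 ratio 1.65, SE 0.16). HTA1 and HTB1, the other H2A and H2B pair, had ratios of 1.60 and 1.55. The H4 genes HHF1 and HHF2 had 1.50 and 1.50, and the H3 genes HHT1 and HHT2 had 1.29 and 1.28. HTZ1, the H2A variant, had 28.9 and 32.7 CPM in DGY1741, against 15.5 and 19.3 CPM in DGY1743 (log2 ratio 0.82, SE 0.22), and HHO1, the linker histone, had 79.1 and 90.1 CPM in DGY1741, against 66.2 and 56.4 CPM in DGY1743 (log2 ratio 0.47, SE 0.15). Both HHF genes share 21.3% of their stretches of 50 bases with other places, so that reads may be split among copies. In each leave-one-out fit between 8 and 10 of the 10 were called higher.

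Cell cycle genes leaned the same way. Of 20 cyclins and cell cycle regulators, 14 were higher in DGY1741, none was lower and 6 were not called (median 0.59). Without DGY1741 replicate 1 the median was 0.54, and fewer members were called higher, as over all genes. PCL1, a G1 cyclin of the Pho85 kinase, had 295 and 265 CPM in DGY1741, against 103 and 89.1 CPM in DGY1743 (log2 ratio 1.54, SE 0.13). CLN1, a G1 cyclin, had 74.6 and 83.7 CPM in DGY1741, against 29.4 and 36.7 CPM in DGY1743 (log2 ratio 1.26, SE 0.17). CLB6, an S phase cyclin, had 13.0 and 13.4 CPM in DGY1741, against 4.91 and 5.65 CPM in DGY1743 (log2 ratio 1.32, SE 0.28).

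Of 21 tested genes of daughter cells and the cell wall outside the amplified stretch, 15 were higher in DGY1741, 2 lower and 4 not called (median 0.53). SIM1, a SUN family relative of UTH1, had 113 and 103 CPM in DGY1741, against 43.0 and 52.6 CPM in DGY1743 (log2 ratio 1.18, SE 0.15). EGT2, a glycosylphosphatidylinositol-anchored protein of cell separation, had 306 and 332 CPM in DGY1741, against 180.2 and 214 CPM in DGY1743 (log2 ratio 0.69, SE 0.13). CHS1, a chitin synthase used in septum repair, was lower with 537 and 431 CPM in DGY1741, against 722 and 934 CPM in DGY1743 (log2 ratio -0.77, SE 0.15). The other lower member was SSD1, given above.

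General stress genes made up the list with the most negative median among the nuclear lists. This list, like the others, was chosen with earlier results of these data known, so that its counts describe and do not test. Of 29 tested stress and stationary phase genes, 26 were lower in DGY1741, 1 was higher and 2 were not called, with a median log2 ratio of -1.28. In each leave-one-out fit 24 to 26 were lower. RTC3 had 3.96 and 7.11 CPM in DGY1741, against 63.5 and 38.7 CPM in DGY1743 (log2 ratio -3.19, SE 0.23). HSP26, a small heat shock protein, had 36.5 and 44.2 CPM in DGY1741, against 386 and 189 CPM in DGY1743 (log2 ratio -2.83, SE 0.14). CTT1, the cytosolic catalase, had 54.8 and 61.5 CPM in DGY1741, against 337 and 225 CPM in DGY1743 (log2 ratio -2.27, SE 0.14). GRE1, a hydrophilin related to SIP18, had 12.1 and 8.64 CPM in DGY1741, against 109.8 and 46.0 CPM in DGY1743 (log2 ratio -2.92, SE 0.20). In DGY1743, replicate 1 was the higher library for these 4 genes, and the widest gap between replicates was that of GRE1. HOR7, the higher member, had 1326 and 1314 CPM in DGY1741, against 945 and 1048 CPM in DGY1743, and was not called with RLE factors or with either DGY1741 replicate left out (0.38 and 0.42).

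Of 14 GSK-3 kinases and stress regulators, MSN2 was higher in DGY1741 (7.1%), and MSN4, MRK1, YAK1 and IGO1 were lower (28.6%). Across nuclear genes outside VPS1 to ESL2, 11.2% were higher and 12.7% lower. MSN2 had 69.4 and 81.2 CPM in DGY1741, against 46.0 and 54.7 CPM in DGY1743 (log2 ratio 0.58, SE 0.16), and MSN4, its paralog, had 52.0 and 70.9 CPM in DGY1741, against 85.7 and 119 CPM in DGY1743 (log2 ratio -0.73, SE 0.15). MSN2 was not called without DGY1741 replicate 2 (0.47), nor MSN4 without DGY1741 replicate 1 (-0.55). MRK1 was not called without DGY1741 replicate 1 (-0.691), replicate 2 (-0.594) or DGY1743 replicate 1 (-0.548). YAK1 was not called without DGY1741 replicate 2 (-0.415) or DGY1743 replicate 2 (-0.281). IGO1 was not called without DGY1741 replicate 1 (-0.307), replicate 2 (-0.504) or DGY1743 replicate 1 (-0.3), nor with DESeq2 (-0.4). Between 1 and 2 of the 14 were lower without DGY1741 replicate 1, DGY1741 replicate 2 or DGY1743 replicate 1.

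Of 24 heat shock chaperones, 18 were lower in DGY1741 and 1 was higher (median -0.68). HSP104, the disaggregase, had 381 and 426 CPM in DGY1741, against 1384 and 1165 CPM in DGY1743 (log2 ratio -1.66, SE 0.16). HSP82, the inducible Hsp90, had 691 and 688 CPM in DGY1741, against 1969 and 1951 CPM in DGY1743 (log2 ratio -1.51, SE 0.17). SSB1, a chaperone bound to ribosomes, was the higher one with 1528 and 1485 CPM in DGY1741, against 1192 and 1026 CPM in DGY1743 (log2 ratio 0.44, SE 0.17), but 43.2% of its stretches of 50 bases occur elsewhere. Of 19 oxidative stress genes outside the amplified stretch, 11 were lower and 1 was higher (median -0.38). That number of lower genes was 7 without DGY1741 replicate 1 and 6 without replicate 2.

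Of the 33 proteasome genes, 14 were lower in DGY1741 and none was higher, by small amounts (median -0.33, range -0.66 to 0.20). RPN4, the transcription factor of these genes, was the lowest with 229 and 241 CPM in DGY1741, against 363 and 378 CPM in DGY1743 (log2 ratio -0.66, SE 0.13). The list median was -0.3 without DGY1741 replicate 1 and -0.31 without DGY1741 replicate 2. Fewer members were called in these fits and without DGY1743 replicate 2. The share of calls lost with either DGY1741 replicate left out was larger than over all genes. The other fits of all 4 libraries called 7 to 13 members lower.

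The phosphate regulon was lower in DGY1741 in 11 of 18 genes and higher in none (median -0.69). Besides PHO84 and PHO89, SPL2, an inhibitor of low-affinity phosphate uptake, had 2.93 and 4.66 CPM in DGY1741, against 26.2 and 25.6 CPM in DGY1743 (log2 ratio -2.76, SE 0.27). GIT1, the transporter of glycerophosphoinositol, had 6.11 and 5.81 CPM in DGY1741, against 18.5 and 15.1 CPM in DGY1743 (log2 ratio -1.50, SE 0.26). PHM8, a nucleotide phosphatase, had a ratio of -1.35 (SE 0.14). Of these 11 lower genes, 10 held a CACGTG or CACGTT match upstream, as did 5 of the 7 others.

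Of 20 genes of sulfate and methionine metabolism outside the amplified stretch, 9 were lower in DGY1741 and none was higher (median -0.33), or 5 with either DGY1741 replicate left out and 7 without DGY1743 replicate 2. MUP1, the high-affinity methionine permease, had 111 and 100.2 CPM in DGY1741, against 491 and 549 CPM in DGY1743 (log2 ratio -2.30, SE 0.14). STR3, a cystathionine lyase, had a ratio of -1.18 (SE 0.15). The iron uptake regulon went the other way, with 10 of 19 tested genes higher in DGY1741, 2 lower and 7 not called (median 0.42). TIS11, which binds mRNA in iron shortage, had 67.5 and 43.4 CPM in DGY1741, against 23.5 and 27.4 CPM in DGY1743 (log2 ratio 1.12, SE 0.18). SIT1, a siderophore transporter, had 479 and 298 CPM in DGY1741, against 154 and 219 CPM in DGY1743 (log2 ratio 1.06, SE 0.13). DESeq2 did not call SIT1, at the same ratio (1.06). FRE1 and ENB1 were the lower members (-0.81 and -0.65), and neither was called without DGY1741 replicate 2 (-0.55 and -0.41), nor FRE1 without DGY1743 replicate 2 (-0.49). Without DGY1741 replicate 1 the count of higher genes was 6 and the median 0.08.

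Nitrogen genes were divided. Of 27 targets of nitrogen catabolite repression outside the amplified stretch, 17 were lower in DGY1741, 3 were higher and 7 were not called (median -0.57). DAL4, the allantoin permease, had 9.73 and 8.64 CPM in DGY1741, against 61.2 and 51.6 CPM in DGY1743 (log2 ratio -2.62, SE 0.21), and its neighbour DAL1, allantoinase, had 14.6 and 12.1 CPM in DGY1741, against 69.6 and 69.6 CPM in DGY1743 (log2 ratio -2.38, SE 0.19). DUR3, a urea transporter, had 86.6 and 94.1 CPM in DGY1741, against 366 and 280.2 CPM in DGY1743 (log2 ratio -1.84, SE 0.13). AGP1, an amino acid permease, had 35.0 and 37.8 CPM in DGY1741, against 123 and 124 CPM in DGY1743 (log2 ratio -1.77, SE 0.15). In contrast, DAL5, the allantoate permease, was higher with 8944 and 7166 CPM in DGY1741, against 3066 and 2580.3 CPM in DGY1743 (log2 ratio 1.51, SE 0.23). CPS1, a vacuolar carboxypeptidase, and GDH2, the NAD-dependent glutamate dehydrogenase, were also higher (0.70 and 0.60), GDH2 not without DGY1741 replicate 1 (0.30). Upstream GATAAG matches were found for 15 of the 17 lower genes and for 5 of the other 10. The count of higher genes was 6 without DGY1743 replicate 1 and 5 without DGY1743 replicate 2. Of 8 GATA factors and regulators outside the core, 1 was higher (12.5%) and 1 lower (12.5%). These shares are near the 11.2% and 12.7% of nuclear genes outside VPS1 to ESL2. DAL81, a positive regulator of allantoin and urea genes, was higher (0.54), and GZF3, a GATA repressor, was lower (-0.38). Neither was called without DGY1741 replicate 2 (0.43 and -0.37).

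In central carbon metabolism, 7 of 17 glycolysis genes were higher in DGY1741 and none was lower (median 0.43). The glycolysis median was 0.38 without DGY1741 replicate 1 and 0.43 without DGY1741 replicate 2. Fewer members were called in both fits, by a larger share than over all genes. The median was 0.60 without DGY1743 replicate 1, where more members were called. The other fits of all 4 libraries called 3 to 9 members higher. TDH2, a glyceraldehyde phosphate dehydrogenase with near-identical copies, had 1710.3 and 1939 CPM in DGY1741, against 1305 and 1011 CPM in DGY1743 (log2 ratio 0.66, SE 0.17). Without DGY1741 replicate 2 TDH2 was not called (0.57). Of 9 tested genes of gluconeogenesis and the glyoxylate cycle, 5 were lower and none was higher (median -0.46), or 2 lower without DGY1741 replicate 1.

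Fermentation isoenzymes split by gene. ADH1 and ADH2, alcohol dehydrogenases, were higher (0.80 and 0.84), although ADH1 was not called with either DGY1741 replicate left out, at nearly the same ratio (0.79 in both cases). PDC6, the minor pyruvate decarboxylase, was lower with 131 and 110.4 CPM in DGY1741, against 805 and 729.6 CPM in DGY1743 (log2 ratio -2.67, SE 0.15). Hexose transporters split as well. HXT3 and HXT4 were higher (0.82 and 0.72), with 14.9% of the stretches of 50 bases of HXT3 occurring elsewhere. HXT5, a transporter of slow growth, was lower with 311 and 307 CPM in DGY1741, against 908 and 771 CPM in DGY1743 (log2 ratio -1.44, SE 0.14). POT1, the thiolase of peroxisomal fatty acid oxidation, was the lowest of its list with 2.75 and 4.44 CPM in DGY1741, against 29.7 and 27.5 CPM in DGY1743 (log2 ratio -2.98, SE 0.27).

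Of the remaining lists, 7 of 18 tested trehalose and glycogen genes outside the amplified stretch, 11 of 43 Gcn4 targets of amino acid synthesis, 7 of 21 autophagy and vacuolar genes and 6 of 20 purine genes were lower. Without DGY1741 replicate 1 these counts were 4, 5, 4 and 3, and without DGY1741 replicate 2 they were 4, 6, 3 and 4. Among nucleobase permeases, 4 of 8 were higher and 2 lower. FUR4, the uracil permease, had 126 and 127 CPM in DGY1741, against 58.2 and 49.9 CPM in DGY1743 (log2 ratio 1.23, SE 0.15). Cytosolic ribosomal protein genes outside the stretch were mostly not called, with 10 of 135 higher and 1 lower (median 0.07). Mitochondrial ribosomal proteins had 1 of 70 higher and 3 lower, and ergosterol genes 1 of 26 higher and 1 lower. Of 94 genes of ribosome biogenesis and RNA polymerases I and III, 11 were higher and 1 lower (median 0.13). In these last 4 lists the shares were near or below the background of 11.2% higher and 12.7% lower. With each library left out in turn, the higher genes numbered 2 to 18 among cytosolic ribosomal proteins and 2 to 13 in ribosome biogenesis, lowest without DGY1741 replicate 2 in both.

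**Figure D4:**
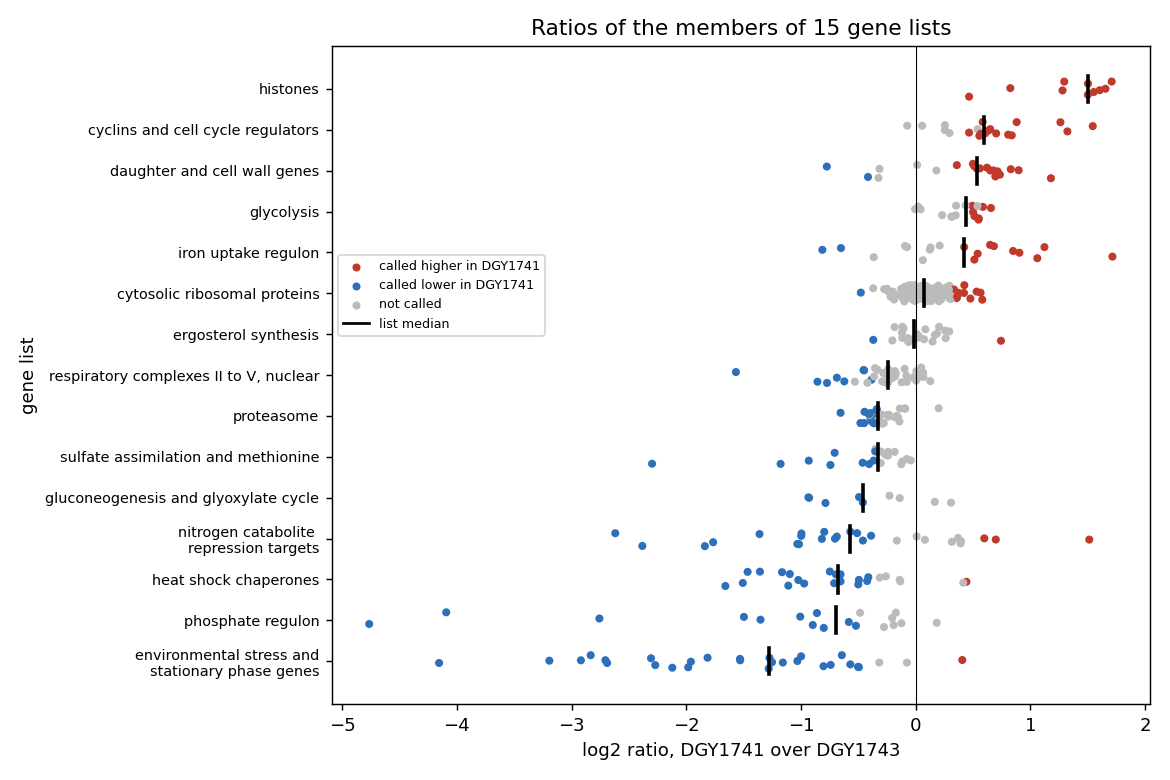
Log2 ratio of DGY1741 over DGY1743 (horizontal axis) of each tested member of gene lists (rows), with members inside VPS1 to ESL2 left out, and the list median as a black bar. Red points were called higher in DGY1741, blue points lower and grey points were not called. The histone row lies wholly to the right of 0, and the stress row, with a median of -1.28, mostly to the left.

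Mating type markers were checked because MF(ALPHA)1 led the positive ratios. STE2, the receptor made by a cells, had 289 and 288 CPM in DGY1741, against 251 and 247 CPM in DGY1743 (log2 ratio 0.21, SE 0.13), and BAR1, their protease, had 24.6 and 25.8 CPM in DGY1741, against 35.2 and 27.5 CPM in DGY1743 (log2 ratio -0.31, SE 0.20). STE3, the receptor made by alpha cells, had 8.78 and 11.5 CPM in DGY1741, against 14.7 and 11.9 CPM in DGY1743 (log2 ratio -0.39, SE 0.25). None of these 3 was called. Of the other alpha-specific genes, SAG1 was not called and MF(ALPHA)2 was below the count minimum, with 2 and 11 reads in DGY1741 and 2 and 7 in DGY1743. MFA2 and STE6, genes of a-factor and its exporter, were higher in DGY1741 (1.11 and 0.55), and STE6 was not called without DGY1741 replicate 1 (0.37). FUS3 and STE18 of the pheromone pathway were lower (-0.61 and -0.45), and neither was called without DGY1741 replicate 1 (-0.55 and -0.33). STE18 was also not called with DESeq2 (-0.451), without DGY1741 replicate 2 (-0.585) or without DGY1743 replicate 2 (-0.298). Of 6 tested meiosis genes, NDJ1 and SPS1, a kinase of spore formation, were lower and 4 were not called.

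Chromosome IX had the highest median of the nuclear chromosomes, with small positive ratios in many genes. The median log2 ratio over its 197 tested genes was 0.24, or 1.18-fold, and 151 of them (76.6%) had positive ratios. Of these genes, 58 (29.4%) were called higher in DGY1741, against 11.0% of all genes, and 17 were called lower. Library medians, against the DGY1743 mean, were 0.22 in DGY1741 replicate 1 and 0.25 in replicate 2, and the SD of library medians was 0.02 in both strains. The count of higher genes was 28 with either DGY1741 replicate left out, with medians of 0.23 in both cases. Every other nuclear chromosome had a median between -0.04 and 0.04, with VPS1 to ESL2 left out of chromosome XI.

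The shift ran along the whole of chromosome IX. Its first 66 tested genes had a median of 0.30, the middle 66 a median of 0.26 and the last 65 a median of 0.16. In windows of 15 consecutive tested genes the median was positive in each (the last window held 2 genes), except from YIR024C to GTT1, where it was -0.28. That window holds DAL4 and DAL1. A test that compares the chromosome with the others was not run, and DNA copy number was not analysed here.

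**Figure D5:**
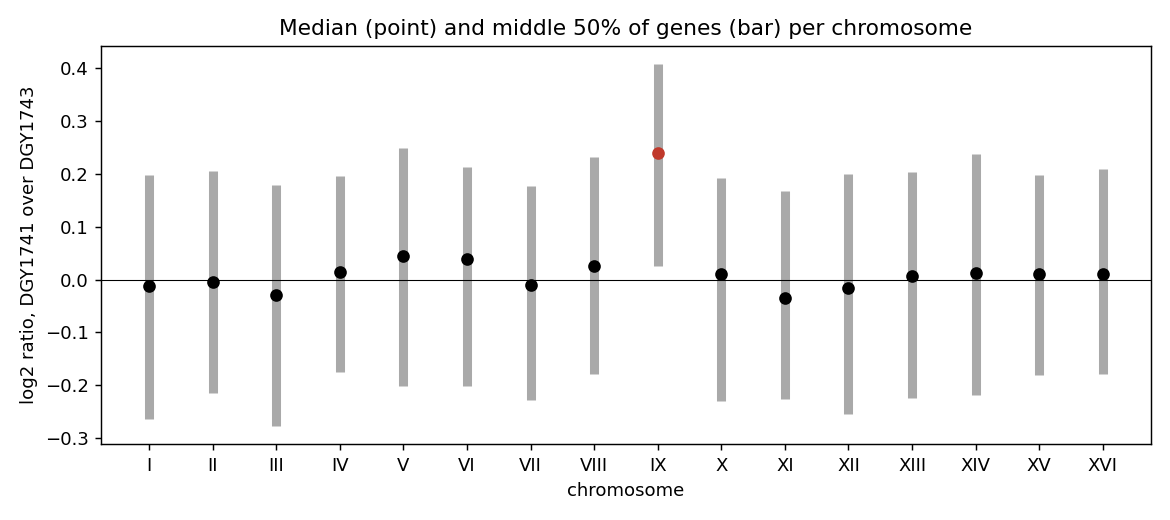
Median (point) and middle 50% (bar) of the log2 ratios of DGY1741 over DGY1743 of tested genes for each nuclear chromosome, with VPS1 to ESL2 left out of chromosome XI. The median of chromosome IX, at 0.24 in red, lies above those of all other chromosomes, which are between -0.04 and 0.04.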

How the data were processed

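RNA-seq of DGY1741 and DGY1743 was used, with 2 libraries per strain, grouped and numbered by their titles. The deposited counts are raw counts of reads per annotated feature that the authors made with cutadapt, STAR and bedtools (strand-specific coverage) on build R64, from single-end reads filtered of rRNA, tRNA and snRNA. The labels call the RNA polyadenylated, and the study's methods state no such selection. A read over several features counts in each, and how reads with several alignments were treated is not given in the sources used here. Rows of protein-coding genes were used, and the other 4 libraries were not used here.

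Mitochondrial rows were left out of library sizes and TMM factors and tested with the rest. Genes that averaged 100 counts or more were fitted with edgeR 4.0.16 (glmQLFit and glmQLFTest) in R 4.3.3, with only these 4 libraries and no covariate, and p-values were adjusted by Benjamini-Hochberg over all 5519 genes. SE is the absolute log2 ratio over the root of F. Nothing states that the 2 cultures of a strain were grown apart in time, so that p-values measure the spread between these samples. Replicates were not 1 library deposited again (chi-square per degree of freedom 14.2 in DGY1741 and 47.2 in DGY1743, mitochondrial rows included). The flanks run from VPS1 to ESL2 without SET3 and the core (GMH1 to TRK2), and list counts leave the whole stretch out. Genes were named by a rule: those the study discusses or draws as mutated, the 12 highest and 12 lowest called nuclear genes outside the stretch, the 3 flank genes farthest above and below the flank median, and members of the lists. The members and lists were chosen with earlier results of these data known. Alternatives were DESeq2 1.42.0, limma voom (3.58.1, chosen after seeing the data), RLE factors, mitochondrial rows in the scaling, other filters, other thresholds, a replicate block and each library left out.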

Additional observations from a re-analysis of the deposited data

How the results depend on the processing

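Every named gene kept its direction in each alternative that gave it a value. Calls were more sensitive: of 1392 called genes, 575 were called in the same direction in all 11 other fits (161 higher, 414 lower). With each replicate left out in turn, called genes numbered 739 to 1366, higher ones 217 to 577 and lower ones 519 to 789. An adjusted p under 0.01 left 367 higher genes. Requiring at least 2-fold left 330 genes, 61 higher and 269 lower. The core median of 0.06 was -0.0178 with filterByExpr and -0.019 with no filter on low counts, which test more genes, and 0.00115 to 0.0973 with a replicate left out. The chromosome IX median was 0.213 with no such filter and 0.21 to 0.238 with a replicate left out, and the flank median -1.61 to -1.58. DESeq2 called 1173 genes, 1157 of them shared with edgeR, and limma voom 1330, 1325 of them shared. The replicate numbers are no pairing: replicate deviations of both strains correlated at -0.092 across genes. A replicate block gave 1210 called genes, with DAL80 at -0.44 and not called. Depth was ample, and the 2 cultures per strain and the pooled spread limit precision. The cause of these shifts was not tested.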
